A study of Mus musculus and Sus scrofa with 30 samples.

Results

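The 10 genes described here encode matricellular and adhesive glycoproteins of the extracellular matrix: Thbs1, Thbs2, Tnc, Postn, Sparc, Fn1, Vcan, Spp1, Nid1 and Lama4. They were taken by symbol, ignoring case, from a table of 24843 mouse genes and a table of 34307 pig genes, and all 10 were listed once in each. RNA was sequenced on day 5 of adipogenic induction in 3T3-L1, a mouse embryonic fibroblast line able to turn into adipocytes, and in porcine DFAT cells, cultured cells from subcutaneous fat that have dedifferentiated. Each system had 5 groups of 3 libraries: vehicle (DMSO), dicoumarol (a vitamin K antagonist of the coumarin class), magnolol (a plant lignan first known from magnolia bark), both compounds together (called the combination), and rosiglitazone (a thiazolidinedione that activates PPARγ, the nuclear receptor driving adipocyte formation). Every 3T3-L1 group, vehicle included, was induced in 10% serum with insulin (0.75 µg/mL), dexamethasone (75 nM) and the phosphodiesterase inhibitor IBMX (37.5 µM). Every DFAT group was induced in 2% serum with biotin (20 µM), pantothenate (10 µM), GlutaMAX (2 mM), IBMX (12.5 µM) and dexamethasone (0.5 µM). The labels used here state no compound doses, so each comparison between compounds holds only at the doses applied. Nothing states that the 3 libraries of a group came from separate cultures or animals, so p-values measure the spread between these libraries, which may be technical.

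Matricellular proteins are secreted into the matrix but act mainly by modulating how cells attach and signal, rather than by bearing load. Thrombospondins, tenascin C, periostin, SPARC and osteopontin (Spp1) belong to this class. Fibronectin and versican form much of the pericellular matrix of fibroblasts, while nidogen 1 and the laminin α4 chain (Lama4) are parts of the basement membrane. Preadipocytes are embedded in a fibronectin-rich matrix, and maturing adipocytes are surrounded by a basement membrane of laminins, nidogens and collagen IV.

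Promoter sequence was shown for 4 of the genes that were lower with rosiglitazone in 3T3-L1, so that the letters upstream of genes moving in 1 direction can be compared. Windows came from RefSeq on GRCm38.p6 and were available for 7 of the 10 genes, Thbs1, Fn1 and Lama4 being the others. Each line gives the 250 bases before the annotated start, 5′ to 3′ on the gene's strand, and capitals mark matches on either strand to 3 short motifs. The letters of the GC box are GGGCGG. Those searched for the CCAAT box were the letters of its name. For the TATA box they were TATAAA.
Thbs2 (chr17:14694263-14694512, minus strand): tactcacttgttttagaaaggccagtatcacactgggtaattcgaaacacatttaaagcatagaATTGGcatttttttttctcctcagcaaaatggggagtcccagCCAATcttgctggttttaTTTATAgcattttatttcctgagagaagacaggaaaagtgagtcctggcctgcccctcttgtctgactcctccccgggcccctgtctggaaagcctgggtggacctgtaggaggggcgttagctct
Tnc (chr4:64047016-64047265, minus strand): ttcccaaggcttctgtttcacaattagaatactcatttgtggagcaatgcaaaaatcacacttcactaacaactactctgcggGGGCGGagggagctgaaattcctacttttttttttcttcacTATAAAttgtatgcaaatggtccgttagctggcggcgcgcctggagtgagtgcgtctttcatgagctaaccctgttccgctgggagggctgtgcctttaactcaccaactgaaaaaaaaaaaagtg
Vcan (chr13:89742513-89742762, minus strand): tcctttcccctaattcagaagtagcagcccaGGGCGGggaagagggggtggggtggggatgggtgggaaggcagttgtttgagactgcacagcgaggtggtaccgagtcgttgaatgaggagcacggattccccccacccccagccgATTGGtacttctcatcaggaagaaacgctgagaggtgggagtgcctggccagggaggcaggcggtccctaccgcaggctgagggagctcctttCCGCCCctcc
Spp1 (chr5:104434861-104435110, plus strand): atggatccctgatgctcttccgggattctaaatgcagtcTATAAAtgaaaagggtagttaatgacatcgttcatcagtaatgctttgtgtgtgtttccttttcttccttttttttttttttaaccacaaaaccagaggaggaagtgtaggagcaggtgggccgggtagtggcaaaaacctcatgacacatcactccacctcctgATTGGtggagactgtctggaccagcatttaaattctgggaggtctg
The 4 windows had different combinations of these letters. Thbs2 had 2 CCAAT boxes and 1 TATA box, Tnc 1 GC box and 1 TATA box, Vcan 2 GC boxes and 1 CCAAT box, and Spp1 1 CCAAT box and 1 TATA box. Among 32536 distinct mouse windows of the same length, 33.0% held the GC box, 33.8% the CCAAT box and 12.3% the TATA box, so these are common letters. The TATA box letters of Thbs2 and Tnc both began 126 bases before the start, and those of Spp1 211 bases before it. In Postn, which was not called in 3T3-L1, they began 26 bases before the start. Nid1, also not called there in the main fit, had 1 GC box and 1 CCAAT box. The cAMP response element TGACGTCA (1.56% of all windows), the AP-1 site TGACTCA (4.45%) and a DR1 element, written as a pair of AGGTCA half-sites with any single base between them (0.0338%), were not found in any of the 7 windows. The RefSeq start of Sparc lay 3103 bases from the start of the gene in the GENCODE M21 annotation, and its window is not shown. Sparc was called lower with rosiglitazone, and that window held none of the 6 motifs searched.

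The genes took a larger part of the DFAT libraries than of the 3T3-L1 libraries. Together they made up 0.633% to 1.78% of the normalized counts of a 3T3-L1 library (median 1.36%) and 5.08% to 7.07% of those of a DFAT library (median 5.77%). FN1 alone took 3.50% to 4.66% of a DFAT library and ranked 1 or 2 among all genes there, and THBS1 took 0.861% to 1.68% and ranked 4 to 8. In 3T3-L1 the rank of Fn1 ran from 3 to 67, and that of Thbs1 from 473 to 6094. Periostin had the reverse pattern, ranking 39 to 50 in the 3T3-L1 table and 10120 to 11296 in the DFAT table. Ranks and shares are given within each table, since the tables were normalized separately, and differences between the systems were not tested. Scaled to normalized counts per kb of exon, the 3T3-L1 vehicle level was highest for Sparc, at 15383 ± 261 (SD, n = 3), and for Fn1, at 12325 ± 1250 (SD, n = 3). Vcan (6598 ± 797), Nid1 (6278 ± 907) and Postn (5909 ± 641) followed, with differences within their spread (SD, n = 3). Thbs2 stood at 1787 ± 493, Thbs1 at 701 ± 526, Lama4 at 638 ± 60.6, Spp1 at 515 ± 88.4 and Tnc at 37.0 ± 4.01 per kb (SD, n = 3).

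**Figure D1:**
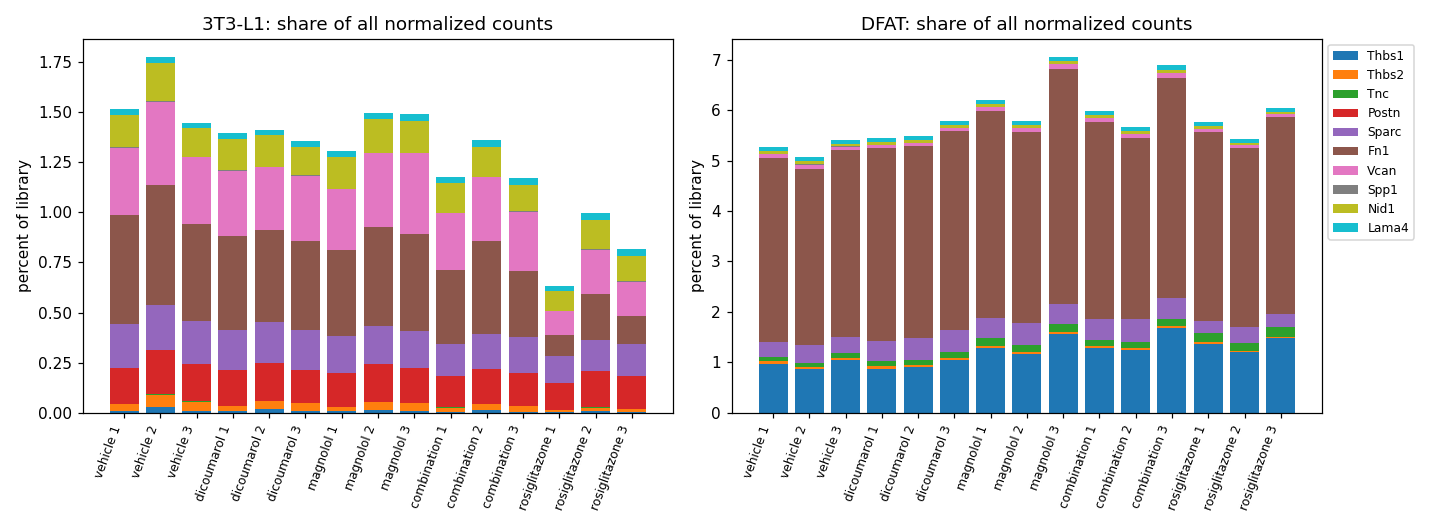
Share of all normalized counts (percent, y axis) taken by each of the 10 genes in each library (x axis), stacked, for 3T3-L1 (left) and DFAT (right), on axes of different scale. In 3T3-L1 the 3 rosiglitazone libraries have the shortest bars, 0.633% to 0.999%, and in DFAT the FN1 and THBS1 parts make up most of every bar.

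The 3T3-L1 libraries held an estimated 22.8 to 30.7 M reads (median 27.1), and the DFAT libraries 44.8 to 70.5 M (median 62.4). Fold changes are on the scale of log2(normalized count + 1), fitted with limma over the 15723 3T3-L1 or 14819 DFAT genes with a mean of at least 10, and every p-value called adjusted is Benjamini-Hochberg adjusted over all of them. A gene is called where the adjusted p is under 0.05. All 8 fibroblast markers (Col1a1, Col1a2, Col3a1, Pdgfra, Pdgfrb, Thy1, Vim, Dcn) passed the filter in 3T3-L1, and so did the 7 of them listed under those symbols in DFAT. The highest single normalized count of any endothelial, macrophage or epithelial marker was 12.8, 69.2 and 9.88 in 3T3-L1 and 236, 95.3 and 15.4 in DFAT. The 236 was PECAM1, and the other 5 endothelial markers stayed under 10 in DFAT, where KDR, CDH1 and KRT19 were at 0 in every library. In these bulk samples fewer cells of a type and less RNA per cell cannot be told apart.

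In 3T3-L1, 7 of the 10 genes were called lower with rosiglitazone than with vehicle: Fn1, Thbs2, Thbs1, Vcan, Spp1, Sparc and Tnc. None of the 10 was called higher. By the same test 19.9% of all genes were called lower. The median log2 fold change of the 10 genes was −0.59, against −0.0015 over all genes tested.

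Fibronectin had the largest fall. Fn1 was at 144616, 158327 and 129123 normalized counts in the vehicle libraries (replicates 1 to 3) and at 30619, 63008 and 38963 with rosiglitazone. The groups were well apart, with replicate 2 highest in both. The log2 fold change was −1.77 ± 0.20 (SE, adjusted p = 7.04e-06). Versican, a large proteoglycan that binds hyaluronan, stood at 88996, 108727 and 88553.5 with vehicle and 33275.5, 60951.5 and 48062 with rosiglitazone. No rosiglitazone library reached the lowest vehicle library, and the log2 fold change was −1.05 ± 0.18 (SE, adjusted p = 0.000249).

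The thrombospondins, which bind CD36 and CD47 and restrain vessel growth, fell about as far. Thbs2 was at 9002, 15906 and 12631 with vehicle and 2602, 5077 and 4200.0 with rosiglitazone. Replicate 1 was the lowest library of Thbs2 in both groups, and the groups did not overlap (log2 fold change −1.68 ± 0.28 SE, adjusted p = 0.000193). Thbs1 was at 2636, 7935 and 2200.4 with vehicle and 790.5, 1914 and 1139 with rosiglitazone. Its replicate 2 stood far above the other 2 in both groups, and the gap between the groups was smaller than the spread within either. The log2 fold change was −1.58 ± 0.51 (SE, adjusted p = 0.0221). It missed the threshold without vehicle replicate 2 (−1.01, adjusted p = 0.135), without rosiglitazone replicate 1 (−1.28, adjusted p = 0.0990) and without rosiglitazone replicate 3 (−1.54, adjusted p = 0.0534).

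Smaller falls were called for 3 further matricellular genes. Sparc, a collagen-binding glycoprotein, went from 58556, 59089 and 57173 with vehicle to 37465, 42482 and 45241 with rosiglitazone (log2 fold change −0.49 ± 0.10 SE, adjusted p = 0.000800). Spp1, osteopontin, an integrin and CD44 ligand, went from 786.6, 743.8 and 1015 to 500.1, 460.0 and 607.6 (−0.69 ± 0.17 SE, adjusted p = 0.00401). Tenascin C, an anti-adhesive hexameric glycoprotein, was a low-level gene in these cells. Tnc was at 259, 321 and 282 with vehicle and 218, 236 and 191 with rosiglitazone (−0.42 ± 0.12 SE, adjusted p = 0.0100). All 3 genes had rosiglitazone libraries entirely below the vehicle libraries. They were called from the same values, so this is not separate support, and the share of all genes with such a gap was not computed. The Tnc call was lost without vehicle replicate 2 (adjusted p = 0.0522), without rosiglitazone replicate 3 (adjusted p = 0.0510) and when only those 2 groups were fitted (adjusted p = 0.0674).

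Of the other 3 genes, none was called. Nid1, which links laminin to collagen IV, was at 42782, 50254 and 37737 with vehicle and 28348, 40471 and 35318 with rosiglitazone. Its groups overlapped, and the log2 fold change of −0.33 ± 0.13 (SE) had an adjusted p of 0.0532. The replicate numbers in the labels paired the 3T3-L1 libraries, and in a fit with the number as a block Nid1 was called (adjusted p = 0.0139). It was also called without vehicle replicate 3 (−0.43, adjusted p = 0.0237) and without rosiglitazone replicate 2 (−0.45, adjusted p = 0.0116). With that block 8 of the 10 genes were called, where 49.8% of all genes were called in either direction. Postn, which binds collagen and integrins, ranged from 47417 to 57793 with vehicle and from 38765 to 49425 with rosiglitazone (−0.20 ± 0.12 SE, adjusted p = 0.178). Its sign depended on the scaling and was positive after quantile normalization (0.05, adjusted p = 0.761). Lama4 ranged from 7182 to 8538 and from 7332 to 9747 (0.18 ± 0.12 SE, adjusted p = 0.225). Among the alternatives it was called higher only without rosiglitazone replicate 1 (0.31, adjusted p = 0.0423).

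**Figure D2:**
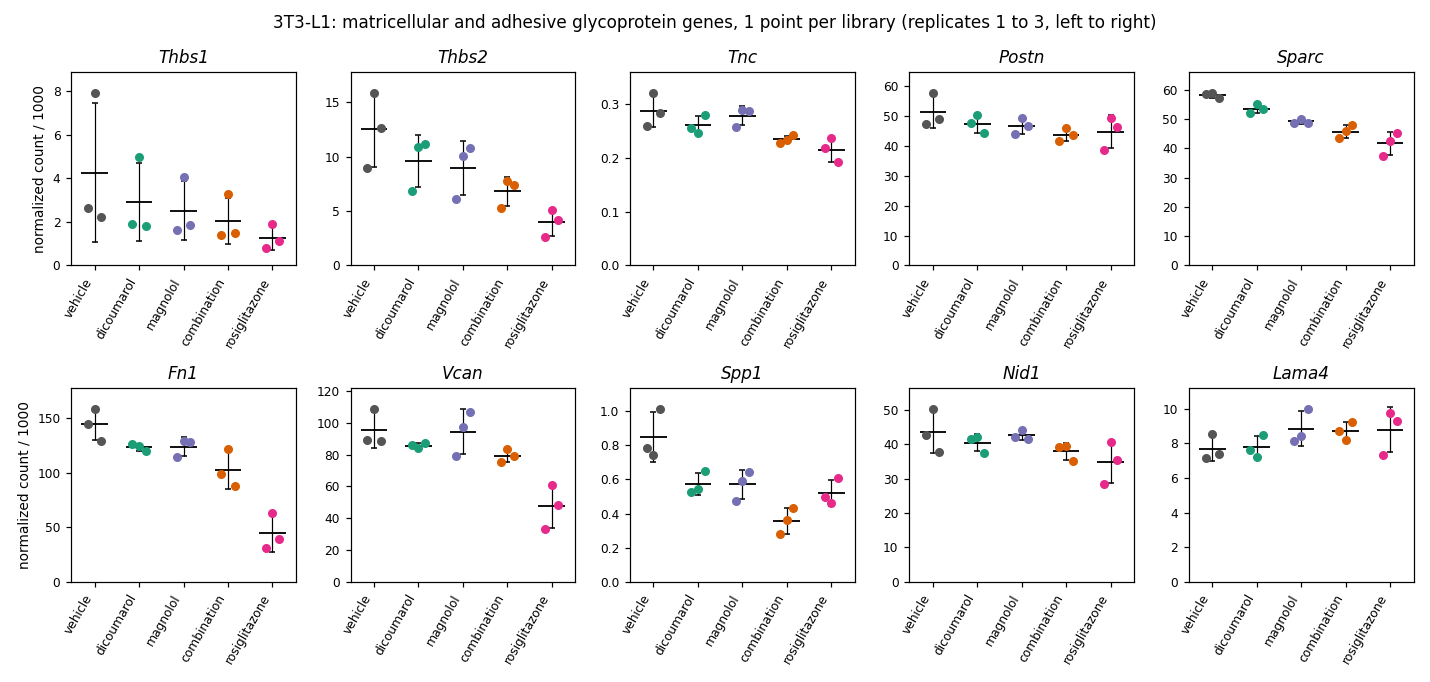
Normalized counts divided by 1000 (y axis, from 0) of each gene in the 15 3T3-L1 libraries by group (x axis). Points are libraries, horizontal lines are means and bars are SD (n = 3). Fn1, Vcan and Thbs2 are lowest in the 3 rosiglitazone libraries, Spp1 is lowest with the combination, and the Lama4 groups overlap.

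With the combination, 2 of the 10 genes were called in 3T3-L1, Spp1 and Sparc, both lower, and by the same test 1.36% of all genes were called lower. Spp1 was at 281, 360.0 and 434 normalized counts with the combination, below every library of the other 4 groups. The fall against vehicle was 1.25 on the log2 scale (SE 0.17, adjusted p = 0.000811), and it was called under all 15 alternatives. Sparc was at 43504, 45853 and 47869 (log2 fold change −0.35 ± 0.10 SE, adjusted p = 0.0434). Its groups were apart, but leaving out any 1 of the 6 libraries took the adjusted p to between 0.0785 and 0.206, and the fit of those 2 groups alone gave 0.109.

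With the replicate block 5 genes were called for the combination, where 13.5% of all genes were called in either direction. Thbs2 (log2 fold change −0.86, blocked adjusted p = 8.12e-06), Thbs1 (−0.93, blocked adjusted p = 0.000249) and Fn1 (−0.50, blocked adjusted p = 0.0475) joined the other 2. Their adjusted p-values without the block were 0.0906, 0.394 and 0.200. Thbs1 shows what the block does: replicate 2 was the highest library of Thbs1 in 5 of the 5 groups. Within each replicate number Thbs1 was lower with the combination, at 1379 against 2636, 3273 against 7935 and 1481 against 2200.4.

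Dicoumarol alone and magnolol alone gave no call among the 10 genes in 3T3-L1 with limma. For dicoumarol, 0.0% of all genes were called, with an unadjusted p under 0.05 in 1 of the 10 (Spp1) and in 393 of all genes. For magnolol, 1.23% of all genes were called in either direction, and 2 of the 10 (Spp1 and Sparc) had an unadjusted p under 0.05. Spp1 was at 527, 546 and 648 with dicoumarol and at 476, 592 and 645 with magnolol, all under the lowest vehicle library. The log2 fold changes were −0.56 (adjusted p = 1.00 unblocked, 0.0128 with the block) and −0.57 (adjusted p = 0.160 unblocked, 0.00207 with the block). Blocked calls for magnolol also took in Thbs2 (−0.48, adjusted p = 0.00355) and Thbs1 (−0.63, adjusted p = 0.0113). In the blocked fit 1 of the 10 genes was thus called with dicoumarol, where 0.502% of all genes were, and 3 with magnolol, where 4.96% were.

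Sparc separated most of the 3T3-L1 groups. Its 3 dicoumarol libraries held 52270.0, 55091 and 53506 and its 3 magnolol libraries 48857, 50143.5 and 48714. From vehicle through dicoumarol and magnolol to the combination, no library of a group reached a library of the group before it, and only the combination and rosiglitazone overlapped. The mean order was vehicle, dicoumarol, magnolol, combination, rosiglitazone for Thbs1, Thbs2 and Sparc, and vehicle was highest for 9 of the 10 genes, Lama4 being the exception. Neighbours in the Thbs1, Postn, Nid1 and Lama4 orders all overlapped. These comparisons share the vehicle libraries.

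The combination was not called different from either compound alone in 3T3-L1. Against dicoumarol limma called 0 of the 10 genes (0.0254% of all genes), Spp1 and Sparc having an unadjusted p under 0.05. Against magnolol it called 0 (0.0% of all genes), and an unadjusted p under 0.05 was found for Spp1 and for 336 of all genes. The log2 differences of Spp1 were −0.69 ± 0.17 and −0.68 ± 0.17 (SE, adjusted p = 0.150 and 1.00). With the block, Spp1 (adjusted p = 0.000698) and Thbs2 (−0.49, adjusted p = 0.00530) were called lower than with dicoumarol, 2 of the 10 where 3.62% of all genes were called. The interaction, which asks whether the combination departs from the sum of both log2 changes, was called for 0 of the 10 and 0.0% of all genes by limma. An unadjusted p under 0.05 was found in 0 of the 10 and in 78 of all genes. For Spp1 it was −0.13, with a 95% interval of −0.63 to 0.38.

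Set against the combination in 3T3-L1, rosiglitazone gave 3 calls. Fn1 (log2 difference −1.27 ± 0.20 SE, adjusted p = 0.00129) and Vcan (−0.78 ± 0.18 SE, adjusted p = 0.00834) were lower with rosiglitazone, 2 of 10 where 8.78% of all genes were called lower. Spp1 was higher (0.56 ± 0.17 SE, adjusted p = 0.0332), 1 of 10 where 9.53% of all genes were. The Spp1 call was lost under 7 of 15 alternatives, among them the fit of those 2 groups alone (adjusted p = 0.0735) and leaving out combination replicate 1 (0.39, adjusted p = 0.146), combination replicate 2 (adjusted p = 0.0702), rosiglitazone replicate 1 (adjusted p = 0.0823) or rosiglitazone replicate 3 (adjusted p = 0.116). With the block 5 genes were called, where 33.3% of all genes were, Thbs2 (−0.82, adjusted p = 9.91e-06) and Thbs1 (−0.65, adjusted p = 0.00207) joining. Their adjusted p-values without the block were 0.0505 and 0.387. Thbs2 was called too without combination replicate 1 (−0.99, adjusted p = 0.0477) or rosiglitazone replicate 2 (−1.02, adjusted p = 0.0207).

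**Figure D3:**
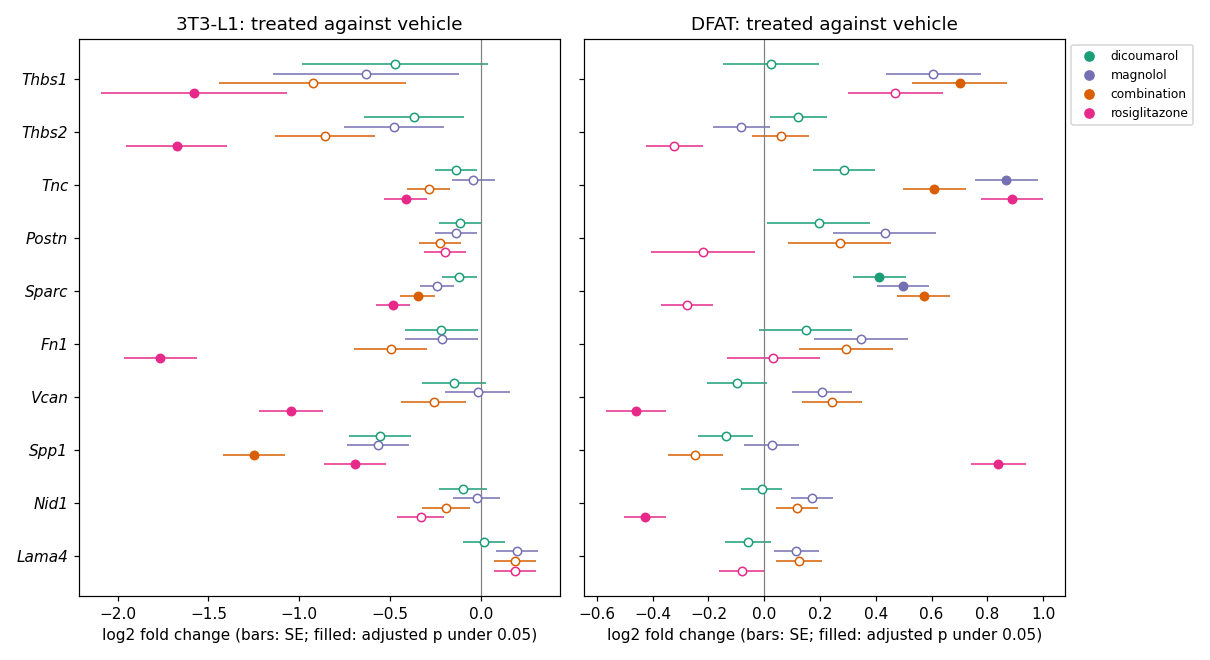
Log2 fold change against vehicle (x axis) of each gene (y axis) for the 4 treatments in 3T3-L1 (left) and DFAT (right), on x axes of different scale. Bars are SE from the limma fit and filled points have an adjusted p under 0.05. In 3T3-L1 9 of 10 rosiglitazone points lie below 0, while in DFAT Tnc lies above 0 for all 4 treatments and Spp1 and Vcan move in opposite directions with rosiglitazone.

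In DFAT cells rosiglitazone was called for 4 of the 10 genes, 2 in each direction. TNC and SPP1 rose, where 5.8% of all genes were called higher, and VCAN and NID1 fell, where 5.02% were called lower. SPP1, on chromosome 8 of the pig table (131077786 to 131085340), was at 970.6, 922.8 and 1165 normalized counts with vehicle and at 1612, 1818 and 2041 with rosiglitazone. No other group reached these levels, and the log2 fold change was 0.84 ± 0.10 (SE, adjusted p = 1.24e-05). TNC, on chromosome 1 (255533238 to 255630376), was at 55277, 51403 and 56984 with vehicle and at 101834, 88912 and 113422 with rosiglitazone (0.89 ± 0.11 SE, adjusted p = 2.75e-05). The pig build is not given in the sources used here.

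VCAN was at 48438, 45978 and 44731 with vehicle and at 35554, 31816 and 33892 with rosiglitazone, below every library of the other groups (−0.46 ± 0.11 SE, adjusted p = 0.00912). NID1 was at 36605.5, 37668 and 34070.3 with vehicle and at 29030.0, 25016.5 and 26594 with rosiglitazone, also below all others (−0.43 ± 0.07 SE, adjusted p = 0.000746). All 4 calls held under every one of the 15 alternatives. Not called were THBS2 (−0.32, adjusted p = 0.0542), SPARC (−0.28, adjusted p = 0.0714), THBS1 (0.47, adjusted p = 0.0975) and POSTN (−0.22, adjusted p = 0.571). With the replicate block THBS2 (adjusted p = 0.00465), SPARC (adjusted p = 0.0145) and THBS1 (adjusted p = 0.00681) were called. That fit called 2368 of 14819 genes in either direction, and the numbers did not pair the vehicle and rosiglitazone libraries. FN1, the most abundant of the 10, differed from vehicle by 0.03 on the log2 scale, with a 95% interval of −0.32 to 0.39, and LAMA4 by −0.08, with an interval of −0.25 to 0.09. THBS1 was called higher after quantile normalization (0.65, adjusted p = 0.00159), and leaving out 1 library called THBS2 (without vehicle replicate 3, adjusted p = 0.0205, or rosiglitazone replicate 1, adjusted p = 0.00396) or SPARC (without rosiglitazone replicate 2, adjusted p = 0.0139).

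With the combination, tenascin C, SPARC and thrombospondin 1 were called higher in DFAT, 3 of 10 where 6.11% of all genes were. None of the 10 was called lower without the replicate block. With the block SPP1 was called lower (−0.25, adjusted p = 0.0130), and 2643 of 14819 genes were called in either direction. TNC was at 81444, 74086 and 95267, above every vehicle library (log2 fold change 0.61 ± 0.11 SE, adjusted p = 0.00147). SPARC went from 173990, 196453 and 196379 with vehicle to 261739, 288349 and 291447 with the combination (0.57 ± 0.09 SE, adjusted p = 0.000526). THBS1 went from 577032, 489715 and 613769 to 823754, 776980 and 1161740 (0.70 ± 0.17 SE, adjusted p = 0.0130). In all 3 the groups were apart, and combination replicate 3 was the highest of these libraries. The calls rest on the same values, so the gap is not separate support, and its share over all genes was not computed.

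The THBS1 and SPARC calls were lost under another scaling. After quantile normalization the THBS1 log2 fold change was 0.01 (adjusted p = 0.980) and the SPARC change 0.30 (adjusted p = 0.140), while TNC stayed called (0.42, adjusted p = 0.0139). Quantile normalization gives each rank the same value in every library. THBS1 ranked 4 to 8 in the DFAT libraries, so its value could move only among those of these ranks. SPARC ranked 18 to 34, and the cause of its difference between scalings was not tested. THBS1 was also lost without vehicle replicate 2 (0.61, adjusted p = 0.0570), without combination replicate 3 (0.52, adjusted p = 0.0677) and with no filter on low values (adjusted p = 0.0748).

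With magnolol alone TNC and SPARC were called higher in DFAT, 2 of 10 where 2.96% of all genes were. TNC was at 102803, 84628.5 and 113080 (log2 fold change 0.87 ± 0.11 SE, adjusted p = 0.000109) and SPARC at 257278, 280037 and 261992 (0.50 ± 0.09 SE, adjusted p = 0.00370). The SPARC call was lost after quantile normalization (0.21, adjusted p = 0.411). THBS1 was at 823473, 714945 and 1038330, apart from vehicle but not called (0.61 ± 0.17 SE, adjusted p = 0.0560). It was called without magnolol replicate 2 (0.73, adjusted p = 0.0374) and was 0.05 after quantile normalization (adjusted p = 0.892). With the replicate block THBS1 was called (adjusted p = 0.00189), where 1360 of 14819 genes were called in either direction.

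Dicoumarol alone gave 1 call in DFAT, SPARC, where 0.911% of all genes were called higher. The libraries held 241074, 256295 and 256393, all above vehicle (0.41 ± 0.09 SE, adjusted p = 0.0264). Leaving out vehicle replicate 1 or 3 or any dicoumarol library raised the adjusted p to between 0.0536 and 0.159, and quantile normalization gave 0.32 (adjusted p = 0.306). TNC was at 65362, 64375 and 69774, also above vehicle but not called (0.29 ± 0.11 SE, adjusted p = 0.328). It was called when only those 2 groups were fitted (adjusted p = 0.0278) and with the replicate block (adjusted p = 0.0176). THBS1 was at 532595, 542561 and 630800, overlapping vehicle (0.02 ± 0.17 SE, adjusted p = 0.986).

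**Figure D4:**
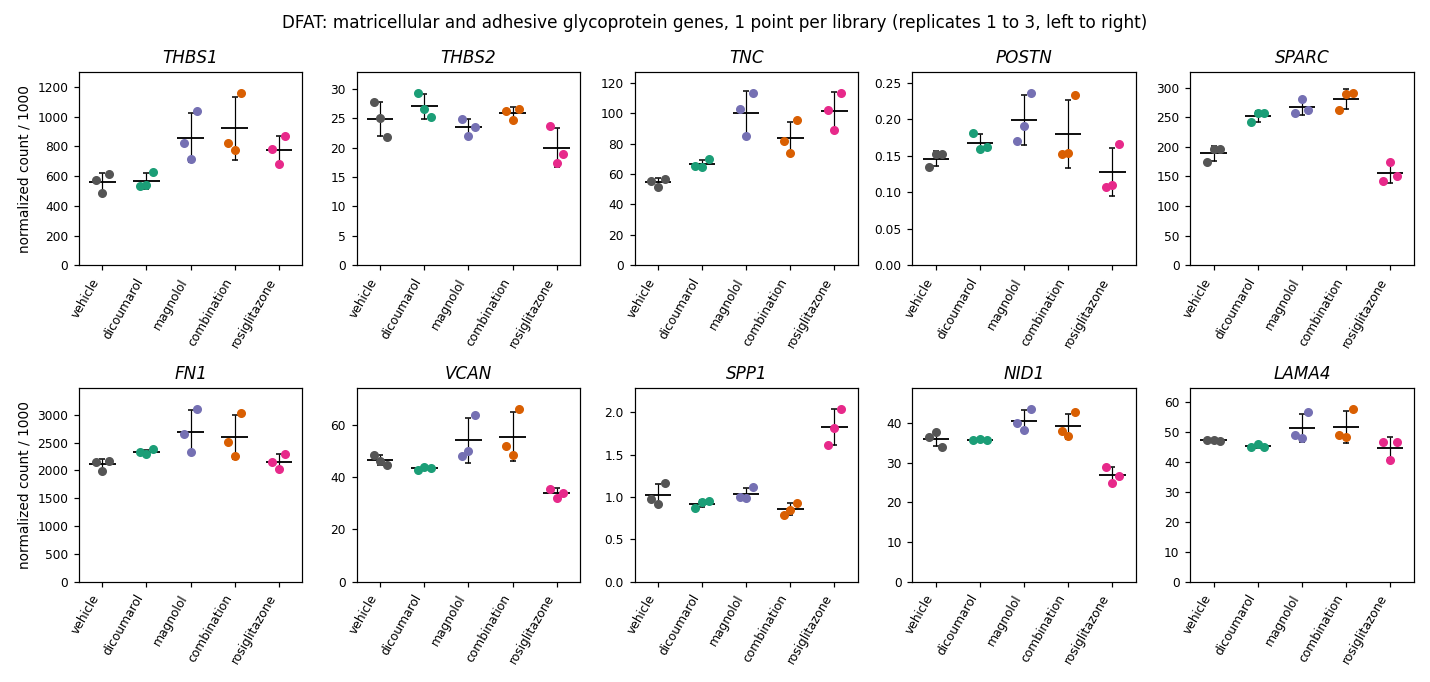
Normalized counts divided by 1000 (y axis, from 0) of each gene in the 15 DFAT libraries by group (x axis). Points are libraries, horizontal lines are means and bars are SD (n = 3). TNC is above vehicle in every treated library, SPP1 is highest and VCAN and NID1 are lowest with rosiglitazone, and SPARC is higher with dicoumarol, magnolol and the combination than with vehicle or rosiglitazone.

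Set directly against the combination, rosiglitazone gave 5 calls in DFAT. SPP1 was higher (log2 difference 1.09 ± 0.10 SE, adjusted p = 9.85e-07), where 8.24% of all genes were called higher. SPARC (−0.85 ± 0.09 SE, adjusted p = 7.27e-06), VCAN (−0.70 ± 0.11 SE, adjusted p = 0.000198), NID1 (−0.54 ± 0.07 SE, adjusted p = 5.91e-05) and THBS2 (−0.38 ± 0.10 SE, adjusted p = 0.0159) were lower, where 8.79% were called lower. SPARC was at 142328, 174910 and 151522 with rosiglitazone, under every combination library. THBS2 was at 26206, 24606.5 and 26546 with the combination and 23673, 17352 and 18834 with rosiglitazone, and its call was lost under 7 of 15 alternatives. These included leaving out combination replicate 1 (adjusted p = 0.0517) or 3 (adjusted p = 0.0529) and rosiglitazone replicate 2 (adjusted p = 0.0735) or 3 (adjusted p = 0.0601). THBS1 differed by −0.23 (adjusted p = 0.405) as scaled by the authors. After quantile normalization, which sets values by rank, the direction turned to 0.64 (adjusted p = 0.00139). TNC was called higher after quantile normalization (0.45, adjusted p = 0.00594) and without combination replicate 3 (adjusted p = 0.0397) or rosiglitazone replicate 2 (adjusted p = 0.0380), and POSTN lower without rosiglitazone replicate 3 (adjusted p = 0.0173).

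The replicate numbers paired the DFAT libraries of magnolol, the combination and rosiglitazone, and the block changed calls in those comparisons. It also changed calls for each treatment against vehicle, where the numbers did not pair the libraries. The vehicle and rosiglitazone libraries numbered 2 correlated at −0.306 in their deviations from group means. For rosiglitazone against the combination 8 genes were called with the block, where 24.9% of all genes were: TNC (0.28, adjusted p = 0.00511), POSTN (−0.49, adjusted p = 0.0199) and LAMA4 (−0.20, adjusted p = 0.0346) joined the 5. For the combination against magnolol 0 of the 10 were called by limma without the block (0.621% of all genes), with TNC and SPP1 at an unadjusted p under 0.05. With it 1 was, SPP1 (−0.27, adjusted p = 0.0367), where 1.96% of all genes were. Against dicoumarol, THBS1 was called higher with the combination (0.68 ± 0.17 SE, adjusted p = 0.0462), where 2.0% of all genes were called higher. That call was lost under 10 of 15 alternatives, 5 of which left out 1 library each: any of the 3 dicoumarol libraries or combination replicates 1 or 3 (adjusted p between 0.0697 and 0.241).

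The interaction of dicoumarol and magnolol was called for 0 of the 10 genes in DFAT by limma without the block, with 2 at an unadjusted p under 0.05, and for 0.081% of all genes. At that unadjusted p there were 582 of all genes. TNC had the largest interaction of the 10, −0.54 on the log2 scale, with a 95% interval of −0.88 to −0.21 and an adjusted p of 0.658. With the replicate block the TNC interaction was called, where 34 of 14819 genes were, though the numbers did not pair the vehicle or dicoumarol libraries. The TNC mean was 66504 ± 2875 with dicoumarol, 100170 ± 14407 with magnolol and 83599 ± 10753 with both (SD, n = 3), against 54555 ± 2860 with vehicle. The other gene was SPARC (−0.34, adjusted p = 1.00).

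Several of the genes had the same replicate number highest or lowest in every group. The share of all genes with such a pattern was not computed. In DFAT, replicate 3 was the highest library in 5 of 5 groups for THBS1, TNC, FN1 and SPP1, and replicate 2 the lowest in 5 of 5 for TNC and FN1. SPARC had its lowest library in replicate 1 in 5 of 5 groups. FN1 was at 2654650, 2328200 and 3108400 with magnolol, and VCAN at 51846, 48274 and 66059 with the combination, with replicate 3 set apart in both. In 3T3-L1, replicate 2 was highest in 5 of 5 groups for Thbs1, Postn and Nid1, and replicate 3 in 5 of 5 for Spp1. What the numbers mark is not stated. Without replicate 2 of every group in 3T3-L1, a setting chosen after seeing the data, Thbs1 was called lower with the combination (−0.75, adjusted p = 0.0300) and lower with rosiglitazone than with the combination (−0.59, adjusted p = 0.0303), while Sparc was lost for the combination (adjusted p = 0.210) and Spp1 for rosiglitazone against the combination (adjusted p = 0.0664). Without replicate 3 of every group in DFAT, chosen likewise, SPARC was lost with dicoumarol (0.43, adjusted p = 0.207) and magnolol (0.54, adjusted p = 0.0530). The same setting lost THBS1 for the combination against dicoumarol (adjusted p = 0.143) and THBS2 for rosiglitazone against the combination (adjusted p = 0.139), and it called POSTN there (−0.49, adjusted p = 0.0481).

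**Figure D5:**
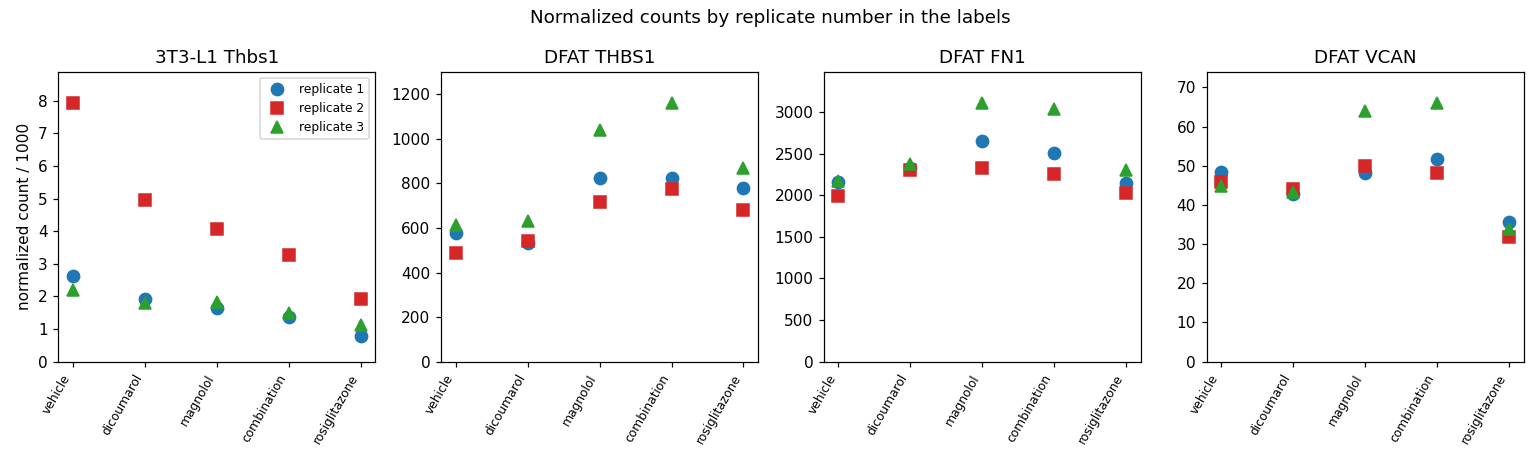
Normalized counts divided by 1000 (y axis, from 0) of 3T3-L1 Thbs1 and DFAT THBS1, FN1 and VCAN by group (x axis), with symbols for the replicate number in the labels. Replicate 2 is highest for Thbs1 in all 5 3T3-L1 groups, and replicate 3 is highest for THBS1 and FN1 in all 5 DFAT groups.

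Further genes of the same families were read from lists chosen with the members. Of 15 further matricellular genes tested in 3T3-L1, 9 were lower and 0 higher with rosiglitazone, where 19.9% of all genes were called lower. Tgfbi, an integrin-binding matrix protein, fell from a mean of 542 to 225 (log2 fold change −1.29 ± 0.19 SE, adjusted p = 6.98e-05), and Fstl1, a secreted relative of SPARC, from 65970 to 33490 (−0.999 ± 0.152 SE, adjusted p = 9.64e-05). Of 11 further laminin and basement membrane genes 4 were lower and 2 higher, with Lamb2 (−1.05) and Lama2 (−0.99) falling and Lamb1 (0.40) rising. Of 9 further adhesive and hyaluronan-binding genes 4 were lower, with Ecm1 (−1.38) and Fbln1 (−1.19) falling most. The list medians were −0.74, −0.30 and −0.68, against −0.0015 over all genes. With the combination 1 gene in each of these lists was lower and none higher, where 1.36% of all genes were called lower. With dicoumarol or magnolol none was called in either direction, where 0.0% and 1.23% of all genes were.

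Adhesion receptors were mostly lower in 3T3-L1 with rosiglitazone and mostly higher in DFAT with magnolol or the combination. In 3T3-L1 with rosiglitazone 13 of 21 receptor genes tested were lower (19.9% of all genes) and 2 higher, with Sdc2, a heparan sulfate syndecan, at −1.19 ± 0.16 and the collagen-binding integrin subunit Itga1 at −1.12 ± 0.22 (log2 fold change ± SE). Cd36, a thrombospondin receptor and fatty acid transporter that is also an adipocyte marker, rose from a mean of 234 to 7455 (5.02 ± 0.50 SE, adjusted p = 2.01e-06). In DFAT 4, 16, 17 and 7 of 24 receptor genes were higher with dicoumarol, magnolol, the combination and rosiglitazone, and 1, 0, 0 and 3 were lower. Of all genes 0.911%, 2.96%, 6.11% and 5.8% were called higher with these treatments, and 5.02% lower with rosiglitazone. ITGA7, a laminin-binding integrin subunit, rose from 647 to 5595 with the combination (3.11 ± 0.09 SE, adjusted p = 1.88e-13). CD36 rose from 1824 to 17690 with rosiglitazone (3.27 ± 0.10 SE, adjusted p = 2.84e-13), while the integrin subunits ITGA9 (−0.56) and ITGA8 (−0.43) fell.

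Further matrix genes were called in both directions in DFAT. Of 16 further matricellular genes 0, 1, 2 and 2 were higher and 1, 0, 2 and 2 lower with dicoumarol, magnolol, the combination and rosiglitazone. The shares of all genes called higher were 0.911%, 2.96%, 6.11% and 5.8% in that order, and 5.02% were called lower with rosiglitazone. In either direction 288, 626 and 1508 of 14819 genes were called with dicoumarol, magnolol and the combination. CCN3 rose with magnolol (0.86 ± 0.16 SE, adjusted p = 0.00265) and CCN2, a connective tissue growth factor, with rosiglitazone (0.74 ± 0.16 SE, adjusted p = 0.00434), while TGFBI fell with the combination (−0.95 ± 0.08 SE, adjusted p = 1.56e-07) and SPOCK3 by 0.36 (adjusted p = 0.0360). Of 9 further basement membrane genes 1, 3, 3 and 0 were higher and 0, 0, 0 and 2 lower with the same treatments in that order. NID2, the second nidogen, rose from 19400 to 29910 with the combination (0.62 ± 0.08 SE, adjusted p = 6.71e-05) and fell to 14820 with rosiglitazone (−0.39 ± 0.08 SE, adjusted p = 0.00410). HSPG2, perlecan, rose with the combination (0.70 ± 0.10 SE, adjusted p = 0.000152), and AGRN, agrin, fell with rosiglitazone (−0.57 ± 0.14 SE, adjusted p = 0.0118). Of 8 further adhesive genes 1, 2, 2 and 1 were higher and 1, 0, 0 and 1 lower in that order. NPNT, an integrin α8β1 ligand, rose with the combination (1.01 ± 0.18 SE, adjusted p = 0.00128) and FBLN2 with dicoumarol (0.81 ± 0.14 SE, adjusted p = 0.00411), and ECM1 fell with dicoumarol (−0.26 ± 0.06 SE, adjusted p = 0.0328) and HAPLN3 with rosiglitazone (−0.54 ± 0.13 SE, adjusted p = 0.0127).

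Cell type markers moved alongside. In 3T3-L1 with rosiglitazone 7 of 7 adipocyte markers tested were higher and 8 of 8 fibroblast markers lower. By the same test 19.9% of all 15723 genes were called lower, and 6312 were called in either direction. The summed adipocyte markers were 43763 to 61743 normalized counts with vehicle and 319310 to 562350 with rosiglitazone, and the summed fibroblast markers 449113 to 495646 and 276671 to 351971. The lipid droplet gene Cidec (log2 fold change 6.77) and the fatty acid binding protein Fabp4 (5.68) rose most, and Dcn (−1.21), Pdgfrb (−1.02), Acta2 (−1.15) and Lmod1 (−0.84) fell. Of the 5 smooth muscle markers tested 3 were lower and 1 higher, their sum going from 3152 to 5805 with vehicle to 1542 to 2724 with rosiglitazone. With the combination the adipocyte sum was 114204 to 179588 and the fibroblast sum 349665 to 407413. The part of these shifts in the lower values of Fn1, Vcan, Thbs1, Thbs2, Sparc, Spp1 and Tnc was not tested.

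In DFAT the adipocyte sum was 17979 to 21029 with vehicle, 23093 to 24720 with dicoumarol, 35704 to 44127 with magnolol, 56147 to 63622 with the combination and 75655 to 82909 with rosiglitazone. Of all genes 0.911%, 2.96%, 6.11% and 5.8% were called higher with dicoumarol, magnolol, the combination and rosiglitazone. All 6 smooth muscle markers were higher with the combination, and 2, 4 and 2 of the 6 with dicoumarol, magnolol and rosiglitazone. Their sum was 112665 to 134095 with vehicle, 182752 to 201817 with the combination and 139873 to 214124 with rosiglitazone. ADIPOQ (log2 fold change 7.15) and PLIN1 (5.05) rose with rosiglitazone, and MYH11 (1.79) and CNN1 (1.55) with the combination. In either direction 288, 626 and 1508 of 14819 genes were called with dicoumarol, magnolol and the combination, and 5.02% were called lower with rosiglitazone. Fibroblast markers were called in both directions. Of 7, 1 was higher and 2 lower with dicoumarol, and 3 were higher and 2 lower with magnolol and with the combination. With rosiglitazone 0 fibroblast markers were higher and 2 lower. Their sum, in which 1 marker alone reached 2040520 in a library, was 2649103 to 2793084 with vehicle, 3501881 to 3605367 with dicoumarol, 3938614 to 4483138 with magnolol, 3918623 to 4548628 with the combination and 2176951 to 2304712 with rosiglitazone. COL1A1 (log2 fold change 0.86 ± 0.13 SE, adjusted p = 0.000728) and COL1A2 (0.70 ± 0.12 SE, adjusted p = 0.00140) rose with magnolol, while DCN fell with the combination (−1.10 ± 0.06 SE, adjusted p = 3.50e-09) and PDGFRA with rosiglitazone (−1.10 ± 0.09 SE, adjusted p = 3.13e-07). The part of these marker shifts in the values of TNC, SPARC, THBS1, SPP1, VCAN and NID1 was not tested.

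Each gene's closest other gene was found by the Pearson correlation of log2 values over the 15 libraries of a table, as a description without a test, since the libraries share groups and scaling. In 3T3-L1, among 11577 genes with a mean of at least 100, these were Itpr3 for Fn1 (r = 0.993), Fam102b for Vcan (0.989), Lhfpl2 for Thbs2 (0.987) and Pdlim2 for Sparc (0.982). Nid1 was nearest to Snx4 (0.964), Lama4 to Atp2a2 (0.963), Thbs1 to Zfp869 (0.961), Tnc to Rps6kc1 (0.922), Postn to Acot9 (0.899) and Spp1 to Nnt (0.846). Among 9932 DFAT genes, NID1 was nearest to OLFML3 (0.970), SPARC to SFRP2 (0.965), FN1 to MAP4 (0.965), THBS1 to FAT4 (0.964), SPP1 to KCNMA1 (0.963) and VCAN to PCDH7 (0.959). TNC was nearest to SAMD4A (0.953), LAMA4 to the laminin γ1 gene LAMC1 (0.953), THBS2 to CC2D1A (0.928) and POSTN to LTBP1 (0.920). No gene had the same nearest gene in both systems.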

How the data were processed

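Bulk RNA-seq of 30 libraries was analysed, 15 per cell system in 5 groups of 3. Poly(A) RNA was made into strand-marked libraries by the KAPA mRNA HyperPrep method, per the labels' protocols. The authors deposited 1 table of signal per species, in which counts had been scaled by DESeq2's normalization, per the labels. The submitters' processing notes name bcl2fastq 2.19.1.403, STAR, DESeq2 and, for all samples, the build GRCm38. Of 24070 mouse genes matched by ID to GENCODE M21 on GRCm38, 95.5% had the same length and 2.18% the same start, so the table's mouse coordinates are not printed. RefSeq promoter windows (GRCm38.p6) and exon lengths (GENCODE M21) were matched by symbol and gene ID. Pig coordinates are the table's own, with the end taken as the listed stop less 1.

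Low values, up to 20 reads, were checked for being whole multiples of 1 read, within 0.02 of a read. In each library 81.6% to 82.7% (3T3-L1) or 89.7% to 91.0% (DFAT) of them were. The remaining low values were not, so whole reads were not recovered throughout and no count model was run. These steps gave the depth estimates. Genes with a mean of at least 10 entered a limma 3.58.1 model (R 4.3.3) of log2(value + 1) with 5 groups, with a variance trend, two-sided, 8 comparisons per table, and Benjamini-Hochberg adjustment over all genes tested. The fit without the block was tried on simulated data with independent libraries. Those data had no pairing by replicate number, so the trial does not cover it. Alternatives were a pseudocount of 0.5 or 10, no filter or a mean of at least 50, no variance trend, only the groups compared, quantile normalization, a replicate block, and leaving out each library. Python 3.11.15 with pandas 2.3.3, numpy 2.4.6 and matplotlib 3.10.9 made the tables and plots.

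The labels number replicates 1 to 3 in each group. Deviations from group means were correlated between same-numbered libraries of 2 groups. In 3T3-L1 all 30 such pairs exceeded 0.1, the lowest at 0.106 and the median at 0.300. Pairs with different numbers had a median of -0.142. Deviations cancel within a group, so this negative value follows from the positive one and is not separate evidence. In DFAT every same-numbered pair exceeded 0.1 only among magnolol, the combination and rosiglitazone. All 10 members are named in the text, with the 2 largest called rises and falls (mean of at least 100) of each other list in any comparison with vehicle. The members, the lists and the comparisons were chosen with earlier results of these data known.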

Additional observations from a re-analysis of the deposited data

Results flagged for a closer look

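Some genes had every 3T3-L1 library of a treatment on one side of the vehicle mean and every DFAT library of it on the other. The share of all genes that meet this rule was not computed. The values are the 3T3-L1 minus the DFAT mean log2 change against vehicle. The tables were normalized separately and none of these differences was tested. With rosiglitazone they were -2.05 for Thbs1 (-1.58 in 3T3-L1, 0.47 in DFAT), -1.53 for Spp1 (-0.69 and 0.84) and -1.30 for Tnc (-0.42 and 0.89). With the combination they were -1.63 for Thbs1 (-0.93 and 0.70), -0.92 for Sparc (-0.35 and 0.57), -0.90 for Tnc (-0.29 and 0.61), -0.79 for Fn1 (-0.50 and 0.29), -0.51 for Vcan (-0.26 and 0.24), -0.50 for Postn (-0.23 and 0.27) and -0.31 for Nid1 (-0.19 and 0.12). With magnolol they were -0.74 for Sparc (-0.24 and 0.50), -0.57 for Postn (-0.14 and 0.43) and -0.56 for Fn1 (-0.22 and 0.35). With dicoumarol they were -0.53 for Sparc (-0.12 and 0.41), -0.49 for Thbs2 (-0.37 and 0.12), -0.43 for Tnc (-0.14 and 0.29), -0.37 for Fn1 (-0.22 and 0.15) and -0.31 for Postn (-0.12 and 0.20). After quantile normalization, which sets values by rank, the DFAT change of FN1 was -0.11 with dicoumarol, magnolol and the combination. FN1 ranked 1 or 2 in every DFAT library, so that setting cannot show whether its direction depends on the scaling. The DFAT change of THBS1, ranked 4 to 8, went to 0.01 with the combination, under the same limit. The changes in both systems passed the test for rosiglitazone in Tnc and Spp1 and for the combination in Sparc. Of these calls, those of Sparc and Tnc in 3T3-L1 were lost under 10 and 3 of 15 alternatives. The SPARC call in DFAT was lost under 1.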

How the results depend on the processing

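Of 28 calls of a gene in a comparison, 18 held under every alternative. With the replicate block the members called in 3T3-L1 went from 0 to 1 (dicoumarol), 0 to 3 (magnolol), 2 to 5 (combination), 0 to 2 (combination against dicoumarol) and 3 to 5 (rosiglitazone against the combination). In DFAT, where the numbers pair only 3 groups, the block gave 2 for dicoumarol, 3 for magnolol, 4 for the combination and 7 for rosiglitazone (1, 2, 3 and 4 without it), 3 against 1 for the combination against dicoumarol, 1 against 0 for the combination against magnolol, 8 against 5 for rosiglitazone against the combination, and 1 against 0 for the interaction (TNC, adjusted p = 0.0158); 16 of 30 same-numbered pairs correlated above 0.1. Quantile normalization gave 1 for the 3T3-L1 combination and 0, 1, 1 and 0 for DFAT dicoumarol, magnolol, combination and combination against dicoumarol, and it turned the DFAT rosiglitazone against combination difference of THBS1 to 0.64 from -0.23. No filter on low values gave 1 for the 3T3-L1 combination, 0 for DFAT dicoumarol and 0 for DFAT combination against dicoumarol; for the last, a pseudocount of 10 and no variance trend gave 0 too. Over the whole table the block raised the genes called from 193 to 780 (magnolol) and 821 to 2124 (combination) in 3T3-L1 and from 288 to 670, 626 to 1360 and 1508 to 2643 (dicoumarol, magnolol, combination), 1604 to 2368 (rosiglitazone), 348 to 893 (combination against dicoumarol) and 12 to 34 (interaction) in DFAT; fitting only the groups compared lowered those for rosiglitazone against the combination from 2879 to 1458 and from 2523 to 1336. The fit of only the groups compared gave 2 for DFAT dicoumarol. Leaving out 1 library gave 1 for the 3T3-L1 combination, 0 to 1 for DFAT dicoumarol and 0 to 1 for the DFAT combination against dicoumarol. Without replicate 3 of every DFAT group, chosen after seeing the data, the counts were 0 (dicoumarol), 1 (magnolol) and 0 (combination against dicoumarol). With 3 libraries a group, a log2 change had a median SE of 0.146 (3T3-L1) or 0.0992 (DFAT).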
